A study of Homo sapiens with 6 samples.

Results

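The TNF receptor superfamily was examined in U251, an established human glioblastoma cell line, through 10 receptor genes: TNFRSF1A, TNFRSF1B, TNFRSF9, TNFRSF10B, TNFRSF11B, TNFRSF12A, TNFRSF21, CD40, FAS and LTBR. These members were taken by gene symbol from the 58735 genes of the deposited expression table. Poly(A) RNA was sequenced in 6 libraries. The NC group held 3 cultures given sterile deionized water, and the TNF-α group held 3 cultures given recombinant human TNF-α at 10 ng/mL, each for 24 h. The replicates were described as independent biological replicates of 1 cell line in culture, so the cells came without the leukocytes, vessels and stroma of a tumor.

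Receptors of this superfamily carry cysteine-rich repeats outside the cell and act as trimers when they meet a trimeric ligand of the TNF family. Some, called death receptors, hold a cytoplasmic death domain that gathers TRADD or FADD and can start caspase activation, while others bind TRAF proteins directly and signal to NF-κB, JNK and survival genes. TNF-α itself has a pair of receptors. TNFRSF1A, or TNFR1, is made by nearly every cell type and carries a death domain. TNFRSF1B, or TNFR2, lacks this domain and is made mainly by leukocytes and endothelial cells. A comparison of the NC and TNF-α groups therefore shows which receptors these cells transcribed and which differed after a day of exposure to the ligand of this pair.

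Promoter sequence is shown for a pair of receptors that lay on opposite sides of the controls in every TNF-α library. TNFRSF9, higher in all of them, had a RefSeq start on the minus strand of chromosome 1 (GRCh38.p14), and the 250 bases before it held the κB consensus, the DNA element bound by NF-κB, on both strands. The matches overlapped in an 11-base stretch that ran from 74 to 64 bases before the start (chr1:7940903-7940913), shown in capitals in 30 bases of the minus strand at chr1:7940893-7940922:
TNFRSF9: agctgtggtGGGAATTTCCCatgagacccc
In GENCODE, this site also lay in an untranslated exon (chr1:7940784-7940933) of a TNFRSF9 transcript that starts further upstream. TNFRSF21, lower in all TNF-α libraries, had no match in the 250 bases before its RefSeq start, shown for comparison from the minus strand at chr6:47309906-47310155:
TNFRSF21: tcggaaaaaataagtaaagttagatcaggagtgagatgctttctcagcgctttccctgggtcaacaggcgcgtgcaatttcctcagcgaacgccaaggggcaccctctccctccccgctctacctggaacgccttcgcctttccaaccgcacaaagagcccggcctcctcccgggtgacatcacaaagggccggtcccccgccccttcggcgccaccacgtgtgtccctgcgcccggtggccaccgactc

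The TNFRSF21 window had 62% G and C and 20 CG dinucleotides, against 51.6% and 7 in the TNFRSF9 window. Of 35116 RefSeq promoters of the same length, 5.21% held the κB consensus on either strand. The windows of TNFRSF1A, TNFRSF1B and LTBR held no match, and of the 3 windows listed for FAS 1 did. It began at base -157 from the start, in a window of which all 250 bases lay within FAS exons in GENCODE. A match of letters is a description of the window and not a measured site of binding.

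Expression was given as FPKM, fragments per kilobase of gene divided by a library size, which allows levels of different genes to be set side by side. This library size was 0.925 to 0.959 of the reads in genes in the NC libraries and TNF-α replicate 1, but 0.693 and 0.759 in TNF-α replicates 2 and 3, where every FPKM is thereby raised relative to plain scaling by reads. In the NC group the order of the receptors was clear at the top. TNFRSF12A, the receptor for the cytokine TWEAK and also called Fn14, had the highest level, with 181.8 to 196.0 FPKM. TNFRSF10B, a death receptor for TRAIL, had 36.3 to 39.3 FPKM and TNFRSF1A 35.4 to 39.5 FPKM, so their ranges overlapped. LTBR, the lymphotoxin-β receptor, followed at 10.1 to 10.8 FPKM, TNFRSF21 at 7.32 to 7.95 FPKM and FAS at 6.70 to 7.09 FPKM, each with every library above those of the next.

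Below these came a group of receptors with few reads. TNFRSF9, also called CD137, ranged from 0.303 to 0.446 FPKM in the NC libraries and overlapped with TNFRSF11B at 0.127 to 0.453 FPKM. TNFRSF1B had 4 reads in NC replicate 3, which gave 0.0331 FPKM, and no read in the other 5 libraries. CD40 had no read in any library. A count of 0 allows a level of up to 0.0489 FPKM for CD40 and 0.0328 FPKM for TNFRSF1B in the shallowest library, taking 3 reads as the limit and covering counting error only.

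**Figure D1:**
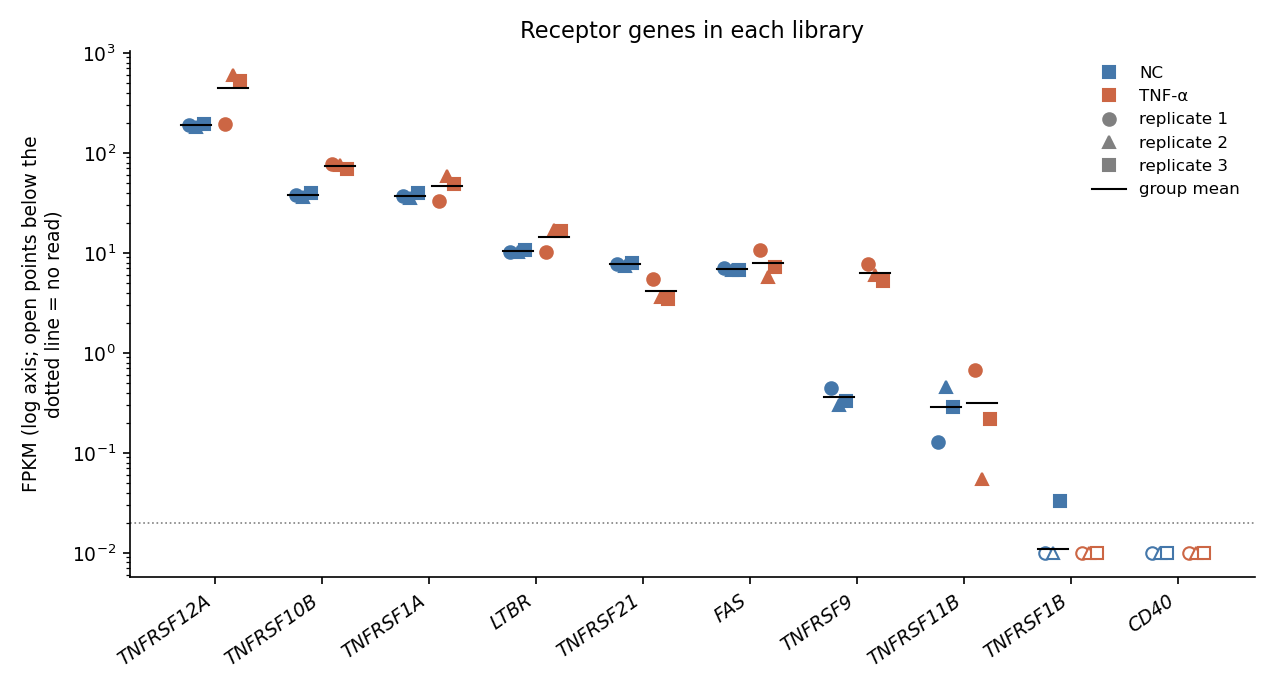
FPKM (log axis) of the 10 receptor genes in each of the 6 libraries, with NC in blue, TNF-α in orange, symbols for replicates 1 to 3 and bars for group means; open points below the dotted line had no read. TNFRSF9 moved from the foot of the plot in NC (0.303 to 0.446 FPKM) to the range of FAS and TNFRSF21 in TNF-α (5.20 to 7.72 FPKM).

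In the TNF-α group TNFRSF12A again stood highest, and TNFRSF10B separated from TNFRSF1A, with 69.2 to 76.6 FPKM against 32.9 to 58.4 FPKM. From LTBR downwards the ranges of neighbours overlapped, with 10.2 to 16.9 FPKM for LTBR, 5.69 to 10.6 FPKM for FAS, 5.20 to 7.72 FPKM for TNFRSF9 and 3.46 to 5.46 FPKM for TNFRSF21. TNFRSF12A held 65.1% to 65.6% of the summed FPKM of the 10 receptors in the NC libraries. Its share was 57.4% in TNF-α replicate 1, below every NC library, and 78.4% and 77.6% in replicates 2 and 3, above every NC library.

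TNF-α replicates 2 and 3 stood apart from the other libraries in more than these receptors. The libraries held 31992167 to 37897044 reads in genes. Genes with over 8 kb of exons took 28.8% to 29.1% of the reads in the NC libraries and TNF-α replicate 1, but 16.6% and 17.9% in TNF-α replicates 2 and 3, while ribosomal protein genes took 2.62% to 2.90% against 7.30% and 6.26%. For the tested receptors, values are therefore given for each TNF-α library, for TNF-α replicate 1 alone against the NC group, without TNF-α replicate 1, and after a correction of each library for the GC content and length of genes. The part of the difference between these libraries in each result was not tested further. Of the 6 fixed markers of astrocytoma or glioblastoma cells, 5 were at or above 1 FPKM in every library, and S100B was at no more than 0.168 FPKM. VIM had 324.9 to 362.1 FPKM in NC and 433.8, 974.2 and 850.0 FPKM in TNF-α, NES 41.1 to 44.4 FPKM and 40.8, 69.2 and 58.0 FPKM, and CD44 133.0 to 136.1 FPKM and 136.1 to 140.9 FPKM. SOX2 had 58.9 to 66.3 FPKM in NC and 57.8, 22.6 and 30.4 FPKM in TNF-α, and GFAP 7.10 to 9.47 FPKM and 1.58 to 2.60 FPKM. None of 5 leukocyte markers reached 1 FPKM in all libraries, and PTPRC and CD3E had no read. Their summed level was 0.670 to 0.880 FPKM in NC and 0.533 to 1.63 FPKM in TNF-α, nearly all of it CD14. The endothelial markers PECAM1 and VWF stayed under 0.03 FPKM, and the summed level of the 4 endothelial markers was 6.21 to 6.80 FPKM in NC and 2.16 to 5.98 FPKM in TNF-α, most of it KDR.

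Of the 10 receptors, 7 passed the filter of at least 1 FPKM in at least 3 libraries and were tested among 12136 genes with limma on log2(FPKM + 1). TNFRSF9 and TNFRSF10B rose, and no receptor fell, at an adjusted p under 0.05. Over all genes tested the same call was made for 1.01%, made up of 0.717% that rose and 0.297% that fell. The groups did not overlap for 3 of the 7 tested receptors, TNFRSF9, TNFRSF10B and TNFRSF21, against 30.1% of all genes. The median log2 fold change was 0.42 for the 7 receptors and 0.04 over all genes. TNFRSF9 passed the filter only through the group in which it was high, so these counts describe the receptors and lend no weight to either call. In bulk RNA of this kind, fewer cells with a transcript and less of it per cell cannot be told apart.

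The receptors of TNF-α were examined first. TNFRSF1A (ENSG00000067182) lies on the minus strand of chromosome 12 from 6328757 to 6342114 in GRCh38, with 8 merged exons. It had 37.0, 35.4 and 39.5 FPKM in controls against 32.9, 58.4 and 49.1 FPKM after TNF-α. TNF-α replicate 1 was lower than every NC library and replicates 2 and 3 were higher, so the groups overlapped. The log2 fold change was 0.28 (SE 0.23, 95% interval -0.27 to 0.84), which did not pass the test (limma, adjusted p = 0.354). The direction turned with the scale: it was -0.21 in TPM, which gives each library the same total, -0.17 after quantile normalization, -0.24 after the GC and length correction and -0.17 with TNF-α replicate 1 alone. TNFRSF1B (ENSG00000028137, chromosome 1, 12167003 to 12209228) had 0, 0 and 4 reads in controls against 0 in every treated library, and was not tested.

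Among the death receptors, TNFRSF10B rose, TNFRSF21 was lower in each treated library without passing the test, and FAS had no common direction. TNFRSF10B (ENSG00000120889, chromosome 8, 23020133 to 23069179, minus strand), known as DR5, binds TRAIL and recruits FADD and CASP8. The NC libraries had 37.6, 36.3 and 39.3 FPKM and the TNF-α libraries 76.6, 76.0 and 69.2 FPKM. The treated libraries lay close together and well above the controls, with group means of 37.7 ± 1.48 and 73.9 ± 4.12 FPKM (SD, n = 3 each), a ratio of 1.96. The log2 fold change was 0.95 (SE 0.13, limma adjusted p = 0.0384).

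On deposited FPKM and after the GC and length correction this difference was steady between libraries, while its call was not. TNF-α replicate 1 alone gave a log2 fold change of 1.00, and the GC and length correction gave 0.95 (limma adjusted p = 0.00378). TNF-α replicates 2 and 3 gave 0.93 (adjusted p = 2.97e-05), a subset in which 79.4% of all genes were called. With any NC library left out the adjusted p was 0.271 to 0.363, without TNF-α replicate 2 it was 0.157 and without replicate 3 it was 0.212, at log2 fold changes of 0.93 to 1.00. TPM gave 0.46 (SE 0.23, adjusted p = 0.187) and quantile normalization 0.50 (SE 0.22, adjusted p = 0.197), so the libraries were less alike on these scales. With no filter on low values the adjusted p was 0.0745. The other TRAIL receptors of the cell surface lie in the same stretch of chromosome 8, with TNFRSF10C, TNFRSF10D and TNFRSF10A ending at 23225126. The decoys TNFRSF10C and TNFRSF10D reached at most 0.176 and 0.0469 FPKM, and the death receptor TNFRSF10A 0.0211 FPKM, so TNFRSF10B was the only TRAIL receptor of these 4 with a level above 1 FPKM. Other genes share 39.3% of the exonic length of TNFRSF10C and 16.6% of that of TNFRSF10A, which limits what their low counts show.

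TNFRSF21 (ENSG00000146072, chromosome 6, 47231532 to 47309905, minus strand), or DR6, is a death receptor best known in neurons, where a fragment of APP was described as a ligand. It had 7.77, 7.32 and 7.95 FPKM in controls against 5.46, 3.63 and 3.46 FPKM after TNF-α. All 3 treated libraries were below all controls, replicates 2 and 3 more so than replicate 1. The log2 fold change was -0.76 (SE 0.17, 95% interval -1.18 to -0.34), and the test over all genes was not passed (limma, adjusted p = 0.144). TNF-α replicate 1 alone gave -0.43, and replicates 2 and 3 gave -0.93 (limma adjusted p = 2.16e-05). In the latter subset 79.4% of all genes were called, and both subsets share the NC libraries. The value was -0.88 after the GC and length correction (adjusted p = 0.0763), and its sign held in the other alternatives run.

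FAS (ENSG00000026103, chromosome 10, 88990582 to 89015785, plus strand) encodes the death receptor for FAS ligand. Its NC libraries had 7.09, 6.72 and 6.70 FPKM and its TNF-α libraries 10.6, 5.69 and 7.22 FPKM. TNF-α replicate 1 lay above every control, replicate 2 below every control and replicate 3 above them by a small margin. The log2 fold change was 0.14 (SE 0.22, 95% interval -0.38 to 0.66, limma adjusted p = 0.623). Replicate 1 alone gave 0.57 (adjusted p = 0.0119), while replicates 2 and 3 gave -0.08 (adjusted p = 0.478) and TPM gave -0.29 (adjusted p = 0.546). ACTA2 on the other strand shares 8.93% of the exonic length of FAS, and its reads cannot be told apart where counting takes no account of strand.

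The costimulatory receptors differed from each other. TNFRSF9 (ENSG00000049249, chromosome 1, 7915894 to 7943165, minus strand) is best known on activated T cells, where it binds TNFSF9 and signals through TRAF1 and TRAF2. It had 102, 63 and 67 reads in controls against 1570, 996 and 800 reads after TNF-α, or 0.446, 0.303 and 0.329 FPKM against 7.72, 6.07 and 5.20 FPKM. Every treated library was over 10 times the NC mean, with ratios of 21.5, 16.9 and 14.5. Group means were 0.360 ± 0.0758 and 6.33 ± 1.28 FPKM (SD, n = 3 each), a ratio of 17.6.

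On the log2(FPKM + 1) scale, which understates the change of a gene under 1 FPKM, the fold change of TNFRSF9 was 2.42 (SE 0.16, limma adjusted p = 0.00316). Limma with voom weights on the recovered reads, which also differs in scaling and variance model, gave 4.10 on the log2 scale (adjusted p = 0.00299). Replicate 1 alone gave 2.68, and the GC and length correction gave 2.79 (adjusted p = 0.000245). Replicates 2 and 3 gave 2.29 (adjusted p = 8.3e-06), a subset in which 79.4% of all genes were called. The call was lost by a small margin in TPM at 2.17 (adjusted p = 0.0515), without NC replicate 2 at 2.39 (adjusted p = 0.0503) and without NC replicate 3 at 2.40 (adjusted p = 0.0515). PTPRC and CD3E, defining markers of leukocytes and of T cells, had no read in any library beside this rise. CD14, another of the leukocyte markers, was detected in every library, with 0.66 to 0.82 FPKM in NC. It had 0.53 FPKM in TNF-α replicate 1, below every control, and lay above every control in replicates 2 and 3, at up to 1.55 FPKM. Which cells gave rise to the TNFRSF9 reads was not tested. CD40 (ENSG00000101017, chromosome 20, 46118272 to 46129863), the receptor of B cells and antigen-presenting cells for CD40LG, had no read in either group.

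TNFRSF12A and LTBR, which lack a death domain, showed a pattern in which the treated libraries disagreed, as did TNFRSF1A, which carries this domain. TNFRSF12A (ENSG00000006327, chromosome 16, 3018445 to 3022383, plus strand) had 190.9, 181.8 and 196.0 FPKM in controls against 194.1, 605.9 and 521.6 FPKM after TNF-α. Replicate 1 lay within the range of the controls, and replicates 2 and 3 were at 3.20 and 2.75 times the NC mean. The log2 fold change was 1.05 (SE 0.44, 95% interval -0.01 to 2.12, limma adjusted p = 0.195). It was 0.03 for replicate 1 alone and 0.34 after the GC and length correction (adjusted p = 0.172). For replicates 2 and 3 it was 1.56 (adjusted p = 1.2e-05), a subset in which 79.4% of all genes were called.

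LTBR (ENSG00000111321, chromosome 12, 6375045 to 6391571, plus strand) binds lymphotoxin and TNFSF14 and is a main route to the kinase MAP3K14 and the non-canonical NF-κB pathway. It had 10.1, 10.1 and 10.8 FPKM in controls against 10.2, 16.9 and 16.4 FPKM after TNF-α. Replicate 1 again lay within the controls and replicates 2 and 3 above them. The log2 fold change of 0.42 (SE 0.21, 95% interval -0.09 to 0.93) did not pass the test (limma, adjusted p = 0.199), and it was -0.02 for replicate 1 alone, -0.03 after the GC and length correction and -0.05 in TPM. The gene lies 32930 bases from TNFRSF1A, and both had their low treated value in replicate 1 and their high values in replicates 2 and 3. This pattern was not particular to the locus, since TNFRSF12A on chromosome 16 and TRAF2 on chromosome 9 had it as well.

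TNFRSF11B (ENSG00000164761, chromosome 8, 118923557 to 118952200, minus strand), or osteoprotegerin, is a secreted decoy for TNFSF11 and TRAIL. Its reads numbered 13, 42 and 26 in controls against 61, 4 and 15 after TNF-α, or 0.127, 0.453 and 0.286 FPKM and 0.671, 0.0546 and 0.219 FPKM. TNF-α replicate 1 had the highest value and replicate 2 the lowest of all 6 libraries. Their exact Poisson 95% intervals, which cover counting error only, were 0.514 to 0.863 FPKM and 0.0149 to 0.140 FPKM. The gene stayed under 1 FPKM throughout and was not tested.

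**Figure D2:**
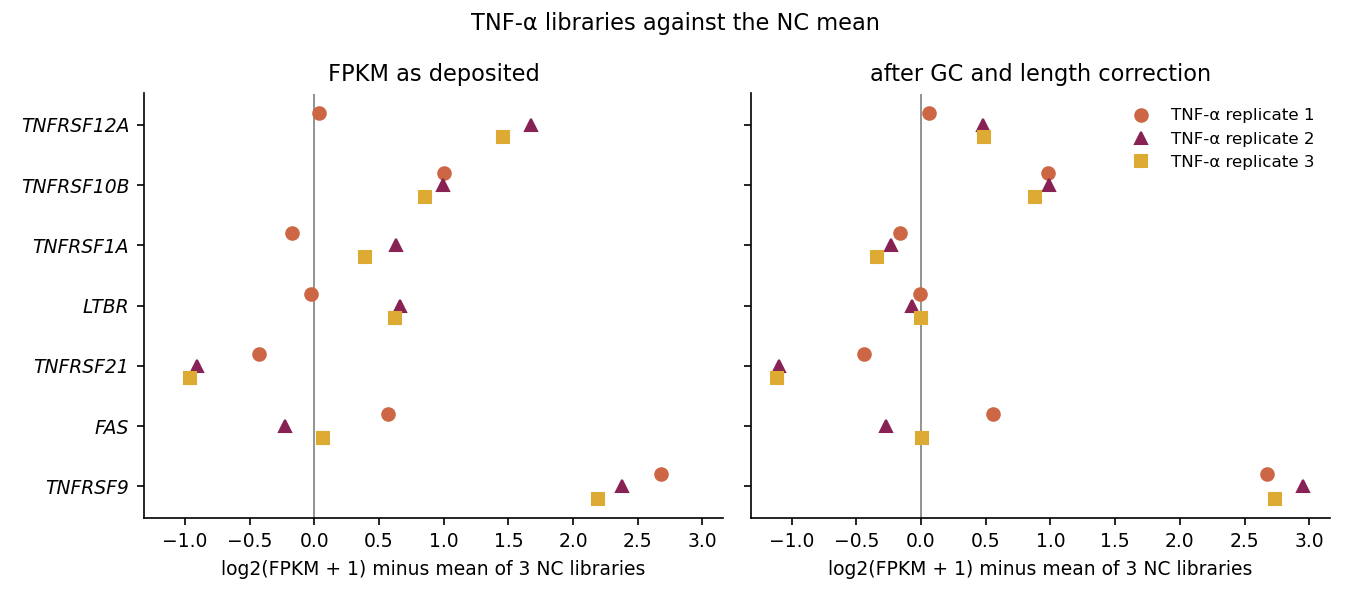
Difference of each TNF-α library from the mean of the 3 NC libraries in log2(FPKM + 1), for the 7 tested receptors, with FPKM as deposited on the left and after the GC and length correction on the right. TNFRSF9, TNFRSF10B and TNFRSF21 keep their side of 0 in every library on both scales, while TNFRSF1A and LTBR in replicates 2 and 3 move from the right of 0 to its left or onto it.

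After the GC and length correction the 3 treated libraries came closer for 5 of the 7 receptors. TNFRSF12A had corrected differences of 0.06, 0.48 and 0.49 in TNF-α replicates 1 to 3, where the deposited scale gave 0.03, 1.67 and 1.46. TNFRSF1A had -0.16, -0.23 and -0.34 in place of -0.17, 0.63 and 0.39, which put all 3 treated libraries below the NC libraries. LTBR came to between -0.07 and 0.00. TNFRSF21 and FAS did not come closer, with -0.44, -1.10 and -1.11 for TNFRSF21 and 0.56, -0.27 and 0.01 for FAS. On this scale 5 of the 7 receptors had groups without overlap, adding TNFRSF1A and TNFRSF12A, against 34.6% of all genes. TNFRSF9 and TNFRSF10B were again those past the threshold, where 2.79% of all genes were called.

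The 2 subsets of treated libraries called different receptors. TNF-α replicate 1 alone, with its spread taken from the NC libraries, gave a call for TNFRSF9, TNFRSF10B and FAS as higher and TNFRSF21 as lower, 4 of 7 receptors against 6.03% of all genes. TNF-α replicates 2 and 3 gave a call for 6 of 7, all but FAS, and 79.4% of all genes were called with the same libraries, so this count is close to that of any gene. The subsets share the NC libraries.

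Ratios between receptors of the same library do not depend on a scale factor common to its genes, but differences by GC content or length remain. They were formed against TNFRSF1A, a choice made after the values were seen. The share of all genes with such ratios apart between groups was not computed. TNFRSF10B had 1.01, 1.03 and 0.99 times the level of TNFRSF1A in controls against 2.33, 1.3 and 1.41 times after TNF-α. In every treated library TNFRSF10B was thus above the control ratio, most in replicate 1. TNFRSF9 moved from 0.0120, 0.0086 and 0.0083 of the TNFRSF1A level to 0.234, 0.104 and 0.106.

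TNFRSF21 was below its control ratio in each treated library, with 0.210, 0.207 and 0.201 in NC and 0.166, 0.0622 and 0.0704 in TNF-α. The ratio of TNFRSF12A to TNFRSF1A was 5.15, 5.14 and 4.96 in NC and 5.89, 10.4 and 10.6 in TNF-α, again without overlap. LTBR kept nearly the same ratio, 0.273 to 0.287 in NC and 0.290 to 0.335 in TNF-α, with groups that did not overlap. The ratio of FAS overlapped, with 0.169 to 0.191 in NC and 0.0975 to 0.323 in TNF-α. A ratio of this kind shows unequal change of the pair and does not say which of them changed.

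**Figure D3:**
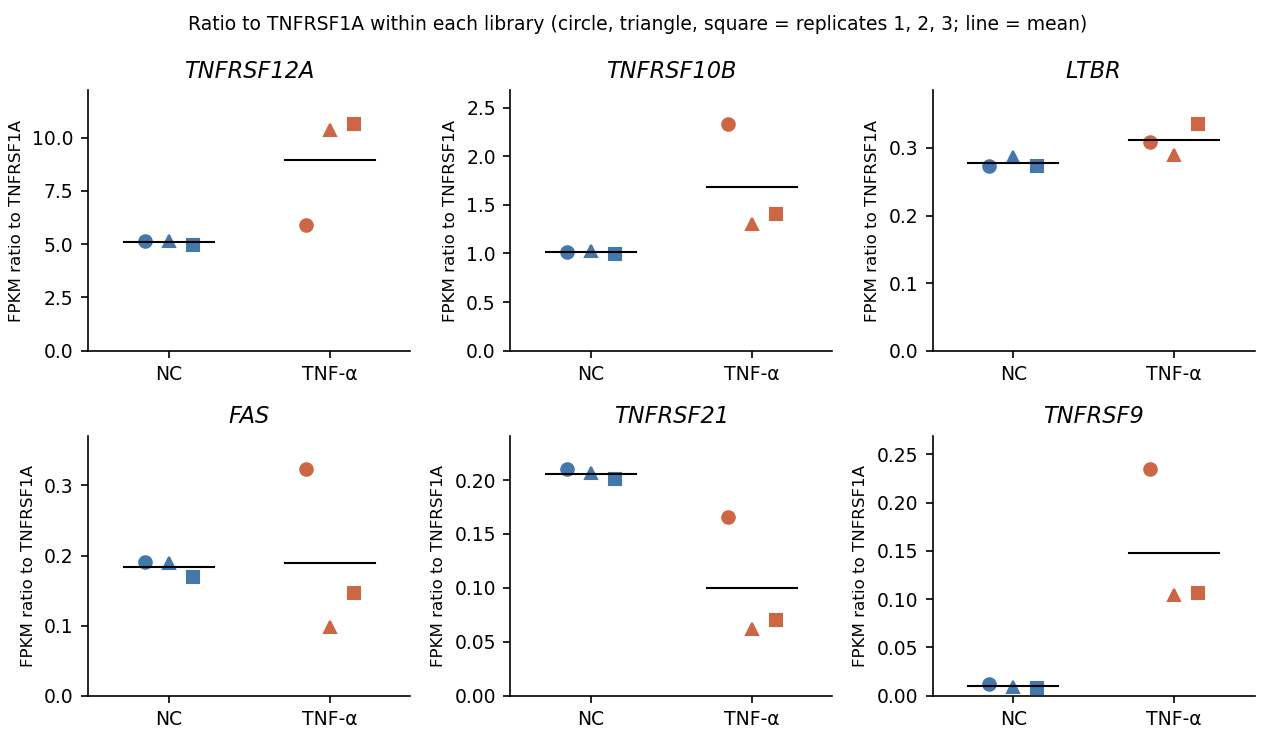
FPKM of 6 receptors divided by the FPKM of TNFRSF1A in the same library (linear axes from 0), for 3 NC libraries (blue) and 3 TNF-α libraries (orange), with lines for group means. The groups are apart for every receptor shown except FAS, all over the same denominator and without a share over all genes for comparison. The ratio of TNFRSF10B is about 1 in NC and 1.3 to 2.33 in TNF-α.

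With 3 libraries per group an exact permutation test cannot give a p below 0.1, so no such test was added for single receptors. Across the alternatives in scaling, filter, pseudocount and libraries, TNFRSF9 had log2 fold changes of 2.17 to 4.10, TNFRSF10B 0.46 to 1.00, TNFRSF12A 0.03 to 1.56 and TNFRSF21 -1.18 to -0.43. The ranges of the other tested receptors crossed 0, with -0.24 to 0.51 for TNFRSF1A, -0.05 to 0.64 for LTBR and -0.29 to 0.57 for FAS.

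**Figure D4:**
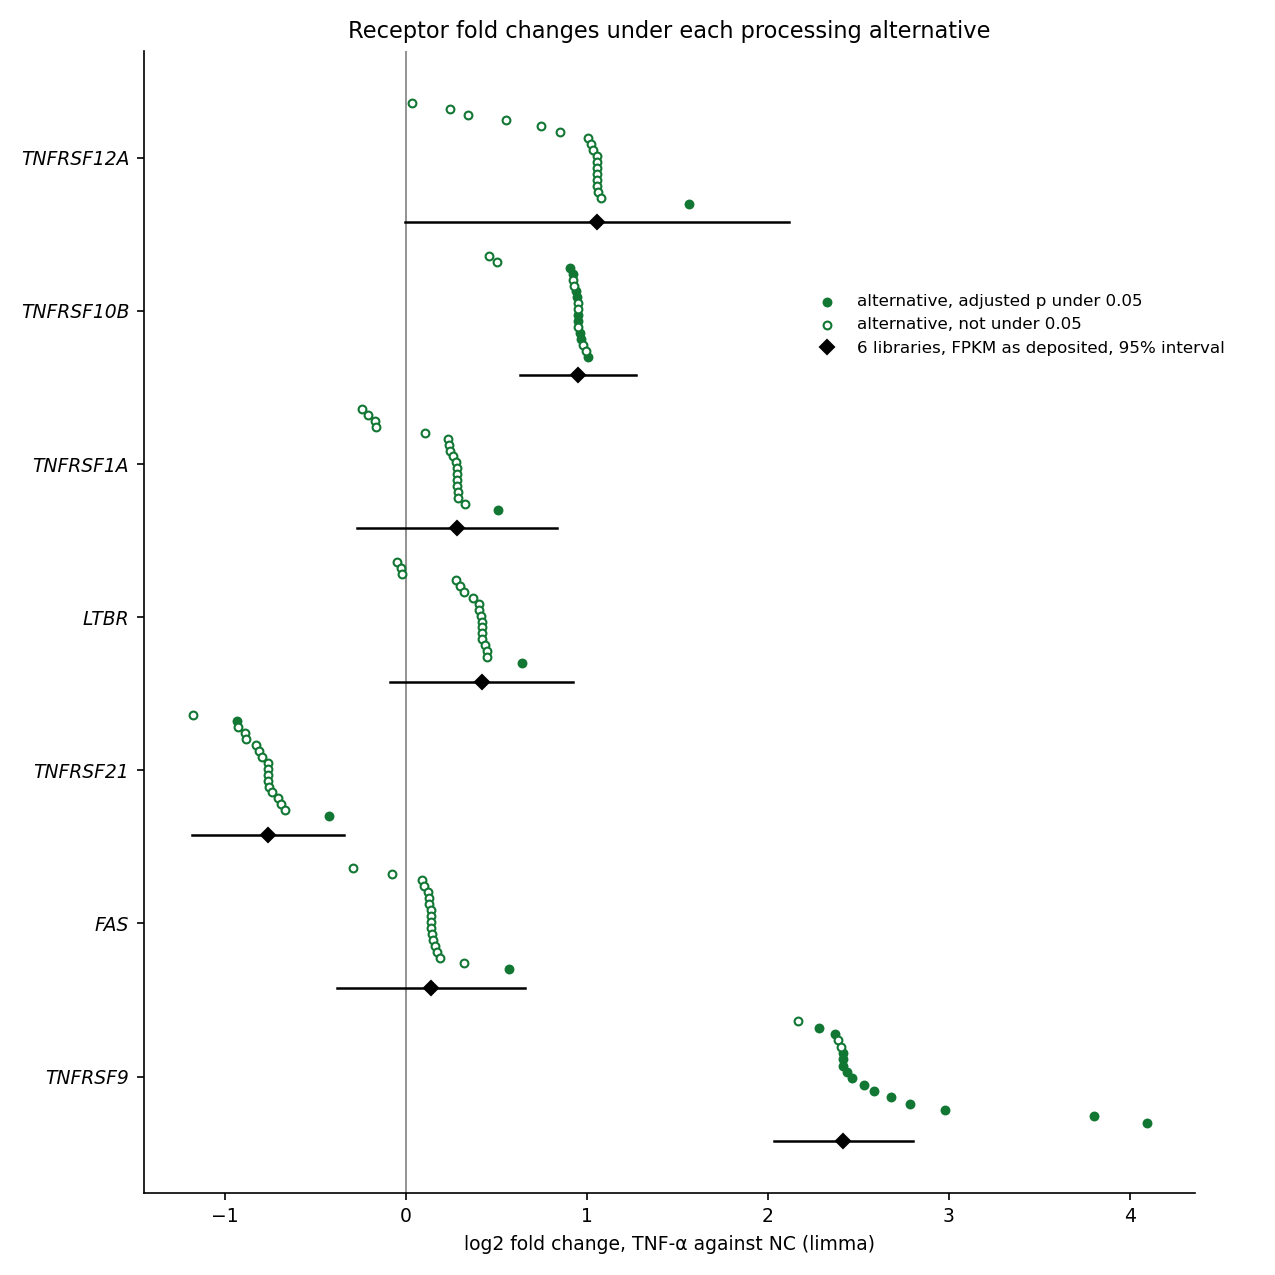
Log2 fold change of the 7 tested receptors (TNF-α against NC, limma) with its 95% interval on deposited FPKM (black diamond) and under each alternative (green, filled where the adjusted p was under 0.05). TNFRSF9, TNFRSF10B, TNFRSF12A and TNFRSF21 stay on their side of 0 throughout, and TNFRSF1A, LTBR and FAS lie on both sides.

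The genes whose values ran most like those of the called receptors over the 6 libraries were named by the Pearson r of log2(FPKM + 1), as a description over libraries of the same groups. For TNFRSF9 they were IRAK2, a kinase of interleukin-1 receptor signaling (r = 0.998, means of 5.51 FPKM in NC and 30.1 FPKM in TNF-α), the macrophage growth factor CSF1 (r = 0.997, 19.1 and 46.3 FPKM), and the galactosyltransferase B4GALT1 (r = 0.997, 58.6 and 101.0 FPKM). For TNFRSF10B they included the actin-associated SYNPO (r = 0.996, 7.65 and 10.5 FPKM) and the orphan receptor GPR176 (r = 0.995, 25.4 and 45.6 FPKM). IRAK2 and CSF1 were called (limma, adjusted p = 0.00316 and 0.0167), while B4GALT1, SYNPO and GPR176 had adjusted p-values of 0.0540 to 0.194.

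Few reads were counted for most of the rest of the superfamily. Of 19 other receptor genes 17 did not pass the filter, 16 stayed under 1 FPKM in every library and 3 had no read. TNFRSF6B, a gene with no read, shares 100% of its exonic length with RTEL1-TNFRSF6B or ARFRP1, so its count of 0 does not show that it was silent. TNFRSF25, a death receptor of lymphocytes, had 4.0, 3.92 and 3.98 FPKM in NC and 4.65, 10.9 and 9.63 FPKM in TNF-α. RELT had 5.07, 4.94 and 5.32 FPKM and then 5.93, 7.44 and 7.19 FPKM. Both were above the controls in each treated library, and neither passed the test over all genes, with log2 fold changes of 0.85 and 0.36 (limma, adjusted p = 0.195 for each). None of the 2 was called by limma on recovered reads either. Both had an unadjusted limma p under 0.05, as had 2942 of the 12136 genes tested. With GC and length corrected the values were 0.49 for TNFRSF25 and 0.11 for RELT, with TNF-α replicate 1 alone they were 0.19 and 0.18, and in TPM they were 0.41 and -0.07.

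Ligands for the 10 receptors were mostly absent as well, and 4 of 11 were tested. TNF, the gene of the added cytokine, had 15, 0 and 12 reads in controls against 78, 134 and 107 reads after TNF-α, or at most 0.248 FPKM against 1.45, 3.08 and 2.63 FPKM. It rose with a log2 fold change of 1.52 (SE 0.22, limma adjusted p = 0.0432), the only called ligand, where 1.01% of all genes were called. TNF passed the filter only through the group in which it was high. The call did not hold with any library left out except TNF-α replicate 1, with adjusted p-values of 0.130 to 0.284, nor in limma on recovered reads (adjusted p = 0.158), with a pseudocount of 0.1 (adjusted p = 0.0841), with no filter (adjusted p = 0.138) or with robust variance estimates (adjusted p = 0.0511).

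TNFSF10, or TRAIL, the ligand of TNFRSF10B, had 16.8, 16.2 and 16.1 FPKM in NC and 21.7, 25.4 and 27.3 FPKM in TNF-α. The treated libraries were all higher, and the log2 fold change of 0.57 did not pass (SE 0.14, limma adjusted p = 0.159) and was 0.09 in TPM. TNFSF12, or TWEAK, the ligand of TNFRSF12A, had 5.27 to 6.38 FPKM in NC and 5.96, 14.1 and 13.1 FPKM in TNF-α (log2 fold change 0.71, limma adjusted p = 0.195), with 0.05 after the GC and length correction and -0.01 with TNF-α replicate 1 alone. TNFSF12-TNFSF13 and AC016876.3 share 33.2% of the exonic length of TNFSF12, which limits what its level shows. APP had 120.6 to 133.3 FPKM in NC and 138.9, 64.0 and 71.1 FPKM in TNF-α (log2 fold change -0.56, limma adjusted p = 0.218), with 0.13 for replicate 1 alone and -1.06 in TPM. TNFSF9, the ligand of TNFRSF9, stayed at or below 0.0499 FPKM, and FASLG, CD40LG and TNFSF11 at or below 0.0409 FPKM.

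Of 14 adaptors and effectors at the receptors 13 were tested, and 2 rose while none fell. Over all genes tested, 0.717% rose and 0.297% fell. TRAF1, a TRAF protein induced by NF-κB that joins TRAF2 at TNFR2 and CD137, had 1.12, 1.09 and 1.27 FPKM in NC and 20.4, 23.5 and 22.6 FPKM in TNF-α. All treated libraries lay far above the controls and close together, with a log2 fold change of 3.42 (SE 0.12, limma adjusted p = 0.000665), and TRAF1 was called under every alternative. BIRC3, the ubiquitin ligase cIAP2, had 2.80, 3.06 and 2.87 FPKM in NC and 28.7, 16.8 and 17.3 FPKM in TNF-α (log2 fold change 2.45, SE 0.22, limma adjusted p = 0.00996). The BIRC3 call was lost in TPM (adjusted p = 0.134), with any NC library left out (adjusted p of 0.103 to 0.108) and without TNF-α replicate 3 (adjusted p = 0.0656).

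The first adaptors of TNFRSF1A did not pass. TRADD, which binds its death domain, had 12.1, 12.3 and 12.8 FPKM in NC and 13.9, 37.0 and 32.5 FPKM in TNF-α. TRAF2 had 9.92, 10.8 and 12.2 FPKM in NC and 14.8, 43.1 and 30.04 FPKM in TNF-α. Both were higher in each treated library and much more so in replicates 2 and 3, with log2 fold changes of 0.99 and 1.22 (limma, adjusted p = 0.195 for each). Corrected for GC and length these were 0.27 and 0.60, with TNF-α replicate 1 alone 0.15 and 0.40, and without it 1.41 and 1.63. RIPK1, the kinase at the same complex, had 21.6 to 22.8 FPKM in NC and 23.2 to 24.2 FPKM in TNF-α (log2 fold change 0.09, SE 0.12, limma adjusted p = 0.543), and its sign turned in TPM at -0.39 and after quantile normalization at -0.17.

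Of 6 genes for the shedding of receptors from the surface, 5 were tested and 0 were called by limma on FPKM, against 1.01% of all genes. An unadjusted limma p under 0.05 was found for 2 of them, against 2942 of 12136 genes tested. Limma on recovered reads called 1 of them, against 115 of 12136. RHBDF2, which carries the sheddase ADAM17 to the surface, had 0.975, 1.08 and 0.922 FPKM in NC and 2.08, 2.63 and 2.33 FPKM in TNF-α. The treated libraries were all higher, with a log2 fold change of 0.74 (SE 0.12, limma adjusted p = 0.0611), and RHBDF2 was the gene called from recovered reads (adjusted p = 0.0361). Its value was 0.35 after the GC and length correction (adjusted p = 0.186), 0.63 with TNF-α replicate 1 alone (adjusted p = 0.0485) and 0.96 after quantile normalization (adjusted p = 0.0384). ADAM17, the enzyme that cuts TNF and its receptors from the membrane, had 5.13 to 5.78 FPKM in NC and 6.31, 1.26 and 1.45 FPKM in TNF-α, so that replicate 1 lay above the controls and replicates 2 and 3 below (log2 fold change -0.91, limma adjusted p = 0.198, -0.47 with GC and length corrected and 0.18 with TNF-α replicate 1 alone). RHBDF2 and ADAM17 were chosen from this list after their values were seen, as were TNFRSF25, RELT and the ligands other than TNF.

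**Figure D5:**
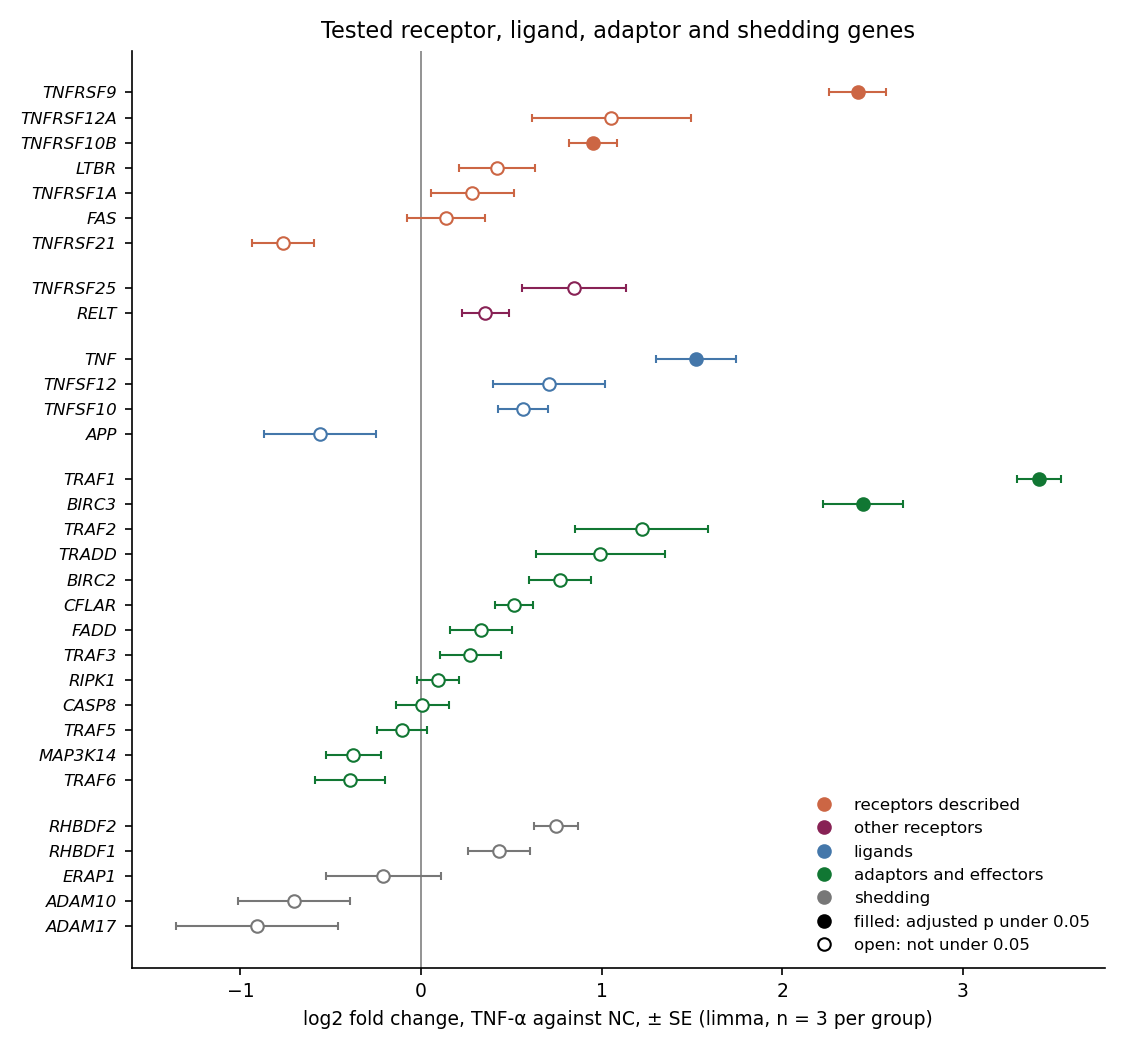
Log2 fold change (TNF-α against NC, limma, bars for SE, n = 3 per group) of the tested receptors, the other receptors of the superfamily, ligands, adaptors and effectors, and shedding genes, filled where the adjusted p was under 0.05. TRAF1, BIRC3, TNFRSF9, TNF and TNFRSF10B are the filled points, all to the right of 0.

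The response to the ligand was checked in 10 target and pathway genes of NF-κB, among them BIRC3, which was also counted with the adaptors. Of these 10 genes 9 rose and NFKB1 did not pass (limma, adjusted p = 0.121), where 1.01% of all genes were called. The chemokine gene CCL2 had the largest change, with 1.94 to 2.12 FPKM in NC and 81.7 to 151.0 FPKM in TNF-α (log2 fold change 5.33, SE 0.25, limma adjusted p = 0.000833). CXCL8 rose by 4.12 on the log2 scale, ICAM1 by 3.76, RELB by 3.48 and NFKBIA by 2.79. All 10 were higher in every treated library than in any control, while 30.1% of all genes had groups without overlap in either direction. All 10 were also called without TNF-α replicate 1, where 79.4% of all genes were called. The number called was 3 of 10 with any NC library left out, 6 and 4 without TNF-α replicates 2 and 3, and 5 with no filter on low values. Over all 12136 genes, 10 to 17 were called with an NC library left out. Without TNF-α replicates 2 and 3 these were 42 and 20, and with no filter 58 of 31662.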

How the data were processed

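The authors deposited gene expression as FPKM, untransformed and separately for each library, beside the length of each gene. RNA was poly(A)-selected and libraries were made with a kit for which strand marking was not stated. The submitters' processing notes name HISAT2 2.0.5, StringTie 1.3.3b and featureCounts 1.5.0, without settings. All 58735 genes matched GENCODE release 29 (GRCh38) in identifier and length. A further 6 columns of values match no sample described here and were not used. The deposited FPKM times gene length gave whole reads (within 0.1) in 100% of values, 31992167 to 37897044 reads per library. Precision at low levels is limited by these reads, and intervals and floors cover counting error only.

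Groups and replicate numbers came from the sample titles. The TNF-α and NC groups (n = 3 each) were compared with limma 3.58.1 (R 4.3.3) on log2(FPKM + 1), lmFit and eBayes with trend, two-sided, with Benjamini-Hochberg adjustment over 12136 genes with at least 1 FPKM in at least 3 libraries, and a threshold of 0.05. Every adjusted p-value in the text is from limma over all genes tested. Fold changes are on the log2(FPKM + 1) scale, which understates changes of low genes. Alternatives were other pseudocounts, filters, scalings and libraries, robust variance estimates, a replicate block, limma with voom weights on recovered reads, and a correction of each library by splines (5 df) of GC content and length. On simulated data of 12136 genes with 200 changed, 198 of these were called, beside 10 unchanged genes. The simulated libraries shared a common dispersion and held no differences by GC content, length or scaling like those between the treated libraries. The simulated counts therefore do not give the rate of detection in the real data. Python 3.11.15 and matplotlib 3.10.9 drew the figures.

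Named genes were the 10 receptors, up to 5 past the threshold in each other list with the largest change, TNF, TRADD, TRAF2 and RIPK1, and the 3 genes most correlated with each called receptor. A gene of this last set and a leukocyte marker are not reported here. Other genes are named in the text as chosen later. The receptors, gene lists and tests were chosen with earlier results of these data known. Promoter windows of 250 bases came from RefSeq (GRCh38.p14) for TNFRSF1A, TNFRSF1B, TNFRSF9, TNFRSF21, FAS and LTBR, matched by symbol, 6 of the 10 receptors. The others, which include the called TNFRSF10B, are not analysed here.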

Additional observations from a re-analysis of the deposited data

How the results depend on the processing

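The call of 2 receptors, 3 ligand, adaptor, shedding or other receptor genes and 123 genes in all depended on the processing. Leaving out each library in turn gave 0 to 6 receptors, 1 to 20 of these pathway genes and 10 to 9630 genes, the lowest without NC replicate 2 and the highest without TNF-α replicate 1. TNF-α replicate 1 alone against NC gave 4 receptors, 10 pathway genes and 732 genes. No filter on low values gave 1 receptor and 58 genes, a filter of 1 FPKM in all libraries 1 and 79 (TNFRSF9 was then not tested), quantile normalization 1 and 185, and TPM 0 and 67. The GC and length correction gave 6 pathway genes and 338 genes, and 5 of 7 receptors without overlap (34.6% of all genes) in place of 3 (30.1%). The cause of these shifts was not tested. TPM moved the median log2 fold change of all genes by -0.40, and the receptors' values moved with it.

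The sign turned for TNFRSF1A in TPM (-0.21), with TNF-α replicate 1 alone (-0.17), with GC and length corrected (-0.24) and with quantile normalization (-0.17). LTBR turned in TPM (-0.0486), with TNF-α replicate 1 alone (-0.0226) and with GC and length corrected (-0.0271). FAS turned in TPM (-0.29), and leaving out each library gave it -0.0787 to 0.32. TNFRSF9, TNFRSF10B, TNFRSF12A and TNFRSF21 kept their direction in every alternative run.

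With the replicate number as a block, 1 receptor (TNFRSF9, adjusted p = 0.0255), 1 pathway gene and 24 genes were called, and TNFRSF10B, TNF and BIRC3 were not (adjusted p = 0.213, 0.160 and 0.0545). Of the 10 NF-κB genes 4 were called under the block. Libraries of the same number had correlations of -0.014, -0.178 and 0.124 between their deviations from the group means, so the numbers were not taken to pair the cultures.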

Other observations

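Among the receptor-proximal genes other than TRAF1 and BIRC3, some were set apart by the correction for GC content and length. BIRC2, the ubiquitin ligase cIAP1, had 31.3, 30.1 and 29.01 FPKM in NC and 63.9, 45.4 and 48.3 FPKM in TNF-α. It was higher in each treated library, with a log2 fold change of 0.77 on deposited FPKM (limma, adjusted p = 0.138) and 1.05 after the correction, where it passed the threshold (adjusted p = 0.00211), but 0.28 in TPM (adjusted p = 0.511) and 0.41 after quantile normalization (adjusted p = 0.317). MAP3K14, the kinase of the non-canonical NF-κB pathway downstream of LTBR, had 13.2, 13.0 and 13.7 FPKM in NC and 8.21, 11.1 and 11.1 FPKM in TNF-α, with -0.38 (adjusted p = 0.195) and, after the correction, -0.56 (adjusted p = 0.0259). TRAF3, an inhibitor of that pathway, had 10.8 to 11.4 FPKM in NC and 17.2, 12.2 and 12.1 FPKM in TNF-α, with 0.27 (adjusted p = 0.251), 0.49 after the correction (adjusted p = 0.0324) and -0.19 in TPM (adjusted p = 0.653). CFLAR, the inhibitor of CASP8 at death receptors, had 2.80 to 2.87 FPKM in NC and 4.38 to 4.61 FPKM in TNF-α, without overlap and with a log2 fold change of 0.52 (limma, adjusted p = 0.112), 1.10 after the correction (adjusted p = 0.0719) and 0.13 in TPM (adjusted p = 0.637). These genes were chosen after their values were seen.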
